A study of Homo sapiens with 12 samples.

Results

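The DNA replication machinery was described across 4 groups of BT549 cells, a triple-negative breast cancer cell line with mesenchymal traits. The set was chosen by gene name, but with earlier results of these data known, so its counts beside all genes are a description. It holds 53 genes for origin licensing, origin firing, the replication fork and the supply of nucleotides. Of these, 52 were measured by a transcript cluster (a group of probes that is summarised into 1 value per array) that carries their symbol alone, out of 17958 such genes on the array. PCNA, the sliding clamp, was left out, because its cluster also carries another symbol. The first group was transfected with siRNA targeting ERβ2 and the second with control siRNA, and RNA was taken after 48 h. The third was transfected with a pcDNA3 plasmid that carries FLAG-tagged ERβ2 cDNA and the fourth with the empty vector (EV), and RNA was taken after 24 h. Each group had 3 biological replicates, 1 array each, which gave 12 arrays. ERβ2 is a splice variant of estrogen receptor β, the product of ESR2. The methods name more than 1 set of ERβ2 siRNA, but not which set was put on the arrays. The siRNA and plasmid arms also differed in transfection reagent and cell density. Both used transient transfection, so any cells that took up no nucleic acid stayed in the cultures. The paper chose BT549 because high transfection efficiency was possible, but gives no figure for it.

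A chromosome is copied from many origins, each of which may be used only once per cell cycle. In G1 the origin recognition complex, CDC6 and CDT1 load the ring-shaped MCM2 to MCM7 helicase onto origins (licensing). In S phase the DBF4-dependent kinase CDC7 and cyclin-dependent kinases let CDC45 and the GINS complex join the helicase, and forks start (firing). Primase and DNA polymerase α then lay down primers, clamp loaders place PCNA, and DNA polymerases ε and δ extend the new strands. Many of these genes are switched on by E2F transcription factors as cells enter S phase, and their mRNA levels follow the share of dividing cells in tumors and cell lines.

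All values are log2 values, so that a change of 1 is a doubling. The medians of the 12 arrays were 5.04 to 5.14, and each array correlated with the others of its group at 0.993 to 0.997 on average. Control siRNA replicate 1 and EV replicate 2 stood high for the replication genes: on each of them 44 of the 52 genes lay above their own group mean, by 0.07 on average, against 0.02 for all genes. ESR2 gave no check of the siRNA labels. It had 4.12, 3.99 and 3.80 in ERβ2 siRNA cells, against 4.03, 3.88 and 4.05 in control siRNA cells, and its cluster does not separate the splice variants. In plasmid cells ESR2 had 4.35, 4.72 and 4.37, against 4.08, 3.93 and 4.01 in EV cells, and the change of 0.47 did not reach the threshold (adjusted p = 0.449). By other assays, the paper reports less ERβ2 mRNA in BT549 cells after the siRNA (qPCR) and more ERβ2 protein after overexpression (Western blot). The mesenchymal markers VIM (11.99 to 12.32), FN1 (10.83 to 11.59) and CDH2 (8.80 to 9.36) were read on every array. ESR1 and PGR, the receptors a triple-negative line lacks, stayed between 3.34 and 4.06, while ERBB2, the receptor HER2, by which such lines are also classed, was read at 7.85 to 8.27. Levels of different probes are not comparable. The epithelial genes EPCAM and CDH1 stayed between 3.46 and 4.60. PTPRC, PECAM1 and ALB, which mark leukocytes, endothelium and liver, ranged from 3.33 to 4.08.

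Motifs in the promoters of these genes were counted as a description. Many replication genes are switched on by E2F factors, so this choice of genes is not independent of E2F motifs. RefSeq promoters of assembly GRCh38.p14 (250 bases before to 50 bases after the start of the gene) were matched for 45 of the 52 genes. An E2F-type motif, spelled TTTCGCGC, TTTGGCGC, TTTCCCGC or TTTGCCGC on either strand with overlapping matches allowed, was found in 21 of these 45 promoters (46.7%). It was found in 4.57% of the 13861 promoters of genes on the array and in 3.33% of all 27305 promoters. A CCAAT box on either strand was found in 24 of the 45 (53.3%), against 36.4% of the array genes. The promoters below are shown because these genes carry the results: the 4 largest falls on ERβ2 siRNA, 1 gene that rose (MCM6), and POLE2, a polymerase subunit that did not pass the test. Capitals mark the E2F-type motif, and each is read along the gene's strand, to 30 bases after the start.
RFC3, chr13:33817899-33818178, plus strand: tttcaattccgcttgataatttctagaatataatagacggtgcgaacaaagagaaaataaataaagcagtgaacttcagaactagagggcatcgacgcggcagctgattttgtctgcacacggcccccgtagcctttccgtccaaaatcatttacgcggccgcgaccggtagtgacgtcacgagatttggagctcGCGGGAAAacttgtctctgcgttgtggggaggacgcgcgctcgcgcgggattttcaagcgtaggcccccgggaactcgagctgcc
GINS1, chr20:25407423-25407702, plus strand: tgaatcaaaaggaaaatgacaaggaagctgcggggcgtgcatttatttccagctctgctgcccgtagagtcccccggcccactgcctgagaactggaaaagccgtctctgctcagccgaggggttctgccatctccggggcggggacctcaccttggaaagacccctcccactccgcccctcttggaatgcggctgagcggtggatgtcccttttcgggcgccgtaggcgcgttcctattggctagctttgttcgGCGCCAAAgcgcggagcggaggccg
CDC25A, chr3:48188388-48188667, minus strand: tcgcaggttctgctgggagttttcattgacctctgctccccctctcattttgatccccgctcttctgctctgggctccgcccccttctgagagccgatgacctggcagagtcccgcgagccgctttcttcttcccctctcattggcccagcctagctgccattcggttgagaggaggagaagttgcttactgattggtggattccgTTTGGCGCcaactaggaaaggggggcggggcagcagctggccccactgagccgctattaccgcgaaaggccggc
ASF1B, chr19:14136560-14136839, minus strand: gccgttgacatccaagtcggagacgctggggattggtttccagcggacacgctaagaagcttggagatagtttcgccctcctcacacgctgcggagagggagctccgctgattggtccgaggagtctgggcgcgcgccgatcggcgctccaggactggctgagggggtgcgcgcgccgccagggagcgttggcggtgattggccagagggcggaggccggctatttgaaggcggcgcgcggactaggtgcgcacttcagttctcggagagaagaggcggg
MCM6, chr2:135876414-135876693, minus strand: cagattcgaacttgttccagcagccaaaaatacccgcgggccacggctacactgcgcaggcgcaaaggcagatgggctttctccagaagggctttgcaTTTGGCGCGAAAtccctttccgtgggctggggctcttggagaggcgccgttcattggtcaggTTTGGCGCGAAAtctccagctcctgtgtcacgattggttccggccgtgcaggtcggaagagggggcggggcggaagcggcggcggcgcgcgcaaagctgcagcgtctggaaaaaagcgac
POLE2, chr14:49688185-49688464, minus strand: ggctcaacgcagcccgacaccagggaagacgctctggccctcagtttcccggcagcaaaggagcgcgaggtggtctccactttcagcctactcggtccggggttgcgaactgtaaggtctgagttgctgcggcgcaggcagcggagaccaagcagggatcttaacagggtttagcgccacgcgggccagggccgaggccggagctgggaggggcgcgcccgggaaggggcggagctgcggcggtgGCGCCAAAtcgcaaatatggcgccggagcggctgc
RFC3, GINS1, CDC25A and POLE2 each hold 1 match in this window. MCM6 holds 4, as 2 overlapping pairs, and ASF1B holds none of these 4 spellings but 3 CCAAT boxes.

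ERβ2 siRNA was compared with control siRNA at 48 h to ask which replication genes change when ERβ2 is targeted. Of the 52 genes, 25 fell and 2 rose, where a gene is said to fall or rise at an adjusted p of at most 0.1 (limma, adjusted over all 17958 genes). Over all genes, 17.5% fell and 18.3% rose. The falls took in the origin recognition subunits ORC1 and ORC6, all 4 GINS subunits, CDC45, MCM10, the clamp loader subunits RFC2, RFC3 and RFC5, the S phase phosphatase CDC25A and the histone chaperone ASF1B. The subunits of the MCM2 to MCM7 helicase and the 8 polymerase and primase subunits among the 52 genes changed by at most 0.16 in either direction. The median change was −0.15, against −0.03 for all genes, and 44 of the 52 changes were negative, against 10132 of all 17958. On 29 genes the ERβ2 siRNA arrays all lay below the control siRNA arrays, and on 3 genes all above, against 21.3% and 21.1% of all genes.

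At least 1.5-fold falls were seen for 6 genes, RFC3, GINS1, ASF1B, CDC25A, EXO1 and MCM10, and none rose as much. Among all genes, 1.26% fell and 3.25% rose by that size. ORC6 (1.49-fold lower) lay just short of this cut-off and MCM10 (1.51-fold lower) just past it. Without control siRNA replicate 1, which stood high, 19 genes fell and 3 rose, and the median change was −0.13. Arrays of a whole culture cannot tell fewer cells that express a gene from less of its RNA per cell.

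**Figure D1:**
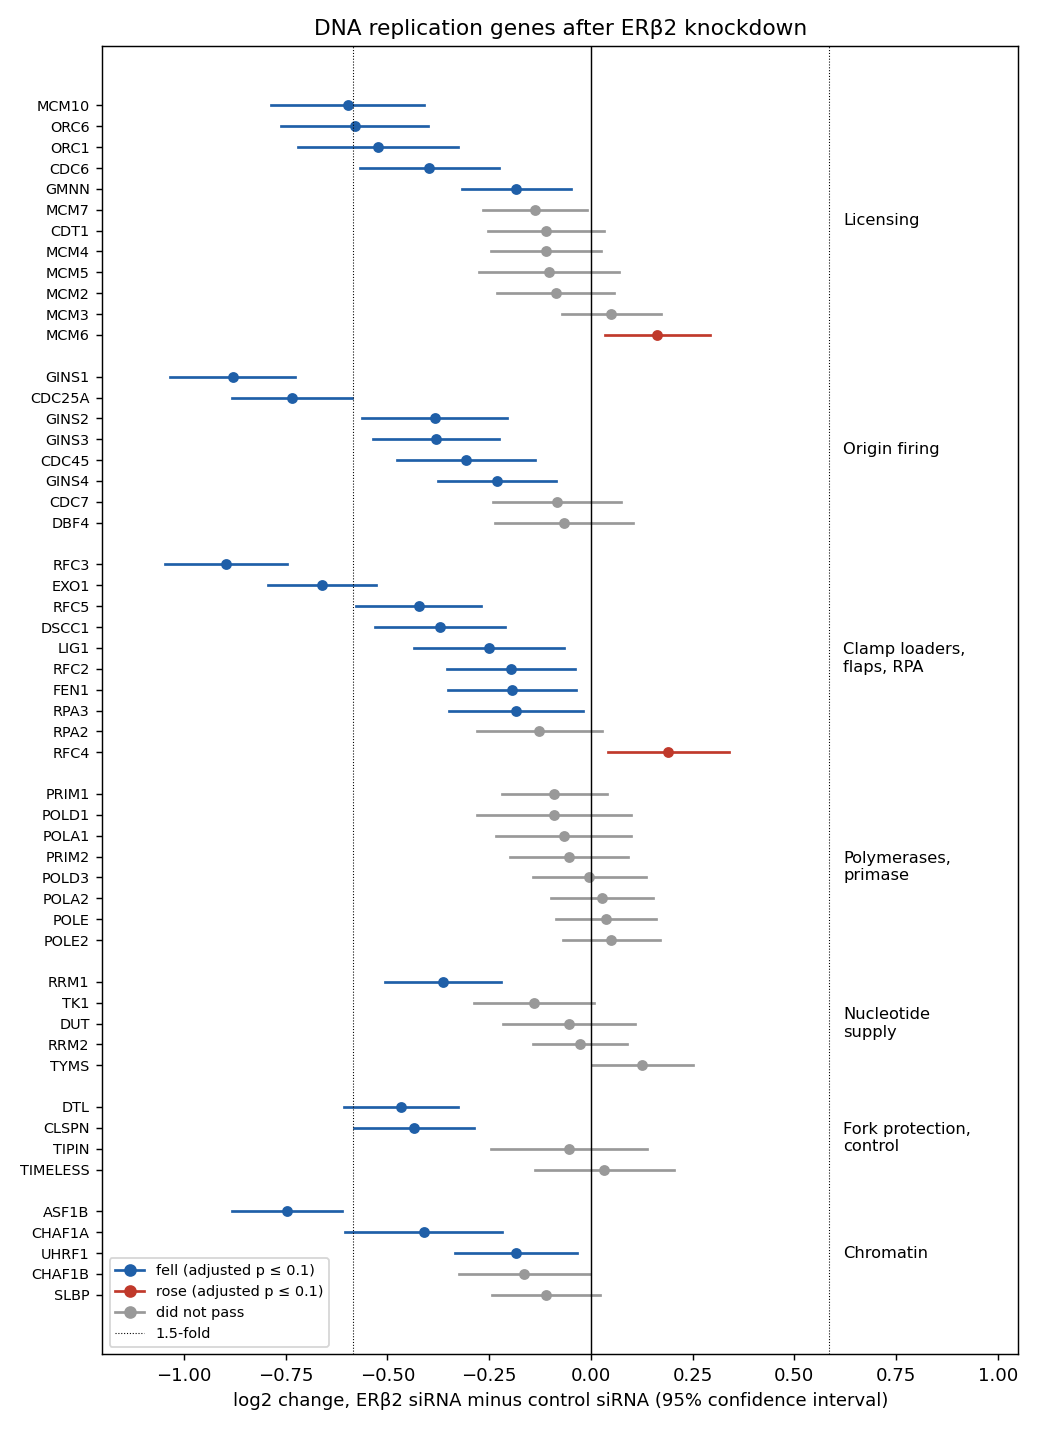
Log2 change of each of the 52 genes, ERβ2 siRNA minus control siRNA, with its 95% confidence interval, ordered by role (points: limma estimate from 3 arrays against 3; blue fell, red rose, grey did not pass; dotted lines at 1.5-fold). The changes run from −0.90 for RFC3 to 0.19 for RFC4, and the 8 polymerase and primase genes lie between −0.09 and 0.05.

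Among the 12 licensing genes 5 fell and 1 rose, against 17.5% and 18.3% of all genes, while the other 6 stayed above the threshold. MCM10, which binds the loaded helicase and is needed to open the origin, had 9.27, 9.25 and 9.17 in ERβ2 siRNA cells, against 10.00, 9.70 and 9.78 in control siRNA cells. The groups did not overlap, and control siRNA replicate 1 was the highest array. The change was −0.60 (SE 0.08, 95% confidence interval −0.78 to −0.41, adjusted p = 0.00103). ORC6, the smallest subunit of the origin recognition complex, had 7.03, 7.04 and 7.19 in ERβ2 siRNA cells and 7.81, 7.61 and 7.58 in control siRNA cells. All ERβ2 siRNA arrays were lower, and the change was −0.58 (SE 0.08, adjusted p = 0.000969). ORC1, a subunit that binds ATP and is rebuilt in each G1 phase, had 8.21, 8.15 and 8.24 in ERβ2 siRNA cells, against 8.92, 8.63 and 8.62 in control siRNA cells. It changed by −0.52 (SE 0.09, adjusted p = 0.00256), again with no overlap. CDC6, the partner of the origin recognition complex in helicase loading, changed by −0.40 (SE 0.07, adjusted p = 0.00501). GMNN, which encodes geminin, the inhibitor of CDT1, changed by −0.18 (adjusted p = 0.0488), and CDT1 itself by −0.11 (95% confidence interval −0.25 to 0.03, adjusted p = 0.229).

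Of MCM2 to MCM7, the helicase subunits that these factors load, none fell and MCM6 rose. MCM6 had 9.08, 9.07 and 9.12 in ERβ2 siRNA cells, against 8.98, 8.94 and 8.86 in control siRNA cells. The groups did not overlap, and the change was 0.16 (SE 0.06, 95% confidence interval 0.03 to 0.29, adjusted p = 0.0643). This call was lost when any 1 of 5 arrays was left out and held only without control siRNA replicate 1. MCM7 had 10.58, 10.67 and 10.70 in ERβ2 siRNA cells, against 10.78, 10.79 and 10.79 in control siRNA cells, and its change of −0.14 just missed the threshold (adjusted p = 0.106). MCM3 was the licensing gene nearest to 0, with 10.18, 10.15 and 10.16 in ERβ2 siRNA cells, against 10.16, 10.08 and 10.10 in control siRNA cells (change 0.05, 95% confidence interval −0.07 to 0.17). The other 3 subunits had changes of −0.09 (MCM2), −0.11 (MCM4) and −0.10 (MCM5), and the intervals of all 6 subunits lay between −0.28 and 0.29.

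Of the 8 origin firing genes 6 fell, against 17.5% of all genes, and all 8 changes were negative. GINS1, a subunit of the 4-part GINS complex of the active helicase, had 9.07, 9.07 and 9.01 in ERβ2 siRNA cells, against 10.05, 9.90 and 9.84 in control siRNA cells. The lowest control siRNA array was far above the highest ERβ2 siRNA array, and the change was −0.88 (SE 0.07, 95% confidence interval −1.03 to −0.73, adjusted p = 5.29e-05), or 1.84-fold lower. The other GINS subunits fell by less: GINS2 changed by −0.38 (adjusted p = 0.00716), GINS3 by −0.38 (adjusted p = 0.00378) and GINS4 by −0.23 (adjusted p = 0.0273). CDC45, which joins GINS on the helicase, changed by −0.31 (SE 0.07, adjusted p = 0.0161). On all 5 of these genes the ERβ2 siRNA arrays lay below all control siRNA arrays.

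CDC25A, the phosphatase that activates CDK2 for S phase entry, had 7.51, 7.49 and 7.41 in ERβ2 siRNA cells, against 8.30, 8.18 and 8.13 in control siRNA cells. The groups were far apart, and the change was −0.73 (SE 0.06, 95% confidence interval −0.88 to −0.59, adjusted p = 0.0001). The kinase that fires origins did not pass the test in either subunit. DBF4, its regulatory subunit, had 4.86, 4.72 and 4.82 in ERβ2 siRNA cells, against 4.97, 4.74 and 4.89 in control siRNA cells. These arrays overlapped, at a mean level under 5, the limit used here for dim genes (change −0.07, adjusted p = 0.543). The catalytic subunit CDC7 changed by −0.08 (95% confidence interval −0.24 to 0.07, adjusted p = 0.402).

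Of the 10 genes for clamp loading, flap processing and single-strand binding, 8 fell and 1 rose, against 17.5% and 18.3% of all genes. RFC3, a small subunit of the clamp loader replication factor C, had the largest fall of the set. Its values were 9.24, 9.23 and 9.11 in ERβ2 siRNA cells, against 10.18, 10.04 and 10.05 in control siRNA cells. The change was −0.90 (SE 0.07, 95% confidence interval −1.05 to −0.75, adjusted p = 4.42e-05), or 1.86-fold lower. RFC4, a subunit of the same loader, was higher: 10.30, 10.32 and 10.46 in ERβ2 siRNA cells, against 10.23, 10.12 and 10.16 in control siRNA cells. The groups did not overlap, and RFC4 rose by 0.19 (SE 0.06, 95% confidence interval 0.04 to 0.34, adjusted p = 0.061). RFC5 changed by −0.42 (adjusted p = 0.00216) and RFC2 by −0.20 (adjusted p = 0.0659), so these 4 small subunits did not share 1 direction. RFC1, the large subunit, which is not among the 52 genes, had a change of 0.04 (adjusted p = 0.636). The rise of RFC4 held in 3 of the 6 fits that each left out 1 array, and the fall of RFC2 in 1 of 6.

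EXO1, a 5′ exonuclease that acts on flaps and mismatches, had 8.84, 8.76 and 8.83 in ERβ2 siRNA cells, against 9.53, 9.47 and 9.41 in control siRNA cells. All ERβ2 siRNA arrays were lower, and the change was −0.66 (SE 0.06, 95% confidence interval −0.79 to −0.53, adjusted p = 0.000101). DSCC1, a subunit of an alternative clamp loader tied to sister chromatid cohesion, changed by −0.37 (adjusted p = 0.00515). The genes that finish Okazaki fragments fell by less: FEN1, the flap endonuclease, changed by −0.19 (adjusted p = 0.0701) and LIG1, the ligase, by −0.25 (adjusted p = 0.05). Of the single-strand binding subunits, RPA3 changed by −0.18 (adjusted p = 0.0937), and RPA1, the large subunit, which is not among the 52 genes, by −0.36 (SE 0.05, adjusted p = 0.00167). RPA2 had 8.40, 8.32 and 8.45 in ERβ2 siRNA cells, against 8.60, 8.42 and 8.53 in control siRNA cells. These arrays overlapped, and the change of −0.13 did not pass (95% confidence interval −0.28 to 0.03, adjusted p = 0.197).

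None of the 8 polymerase and primase genes of the set passed the test, and none had an unadjusted p under 0.05 in limma. The methods' t-test with Benjamini-Hochberg adjustment also called none, and with q-values it called PRIM1 and POLE2. PRIM1, the catalytic primase subunit, had the largest change. It had 8.59, 8.61 and 8.59 in ERβ2 siRNA cells, against 8.76, 8.65 and 8.65 in control siRNA cells (change −0.09, 95% confidence interval −0.22 to 0.04, adjusted p = 0.272). These groups did not overlap but lay close together. POLD3, an accessory subunit of DNA polymerase δ, had 8.95, 8.87 and 8.95 in ERβ2 siRNA cells, against 9.01, 8.88 and 8.89 in control siRNA cells, with overlap and a change of −0.003 (adjusted p = 0.976). The intervals of all 8 genes lay between −0.28 and 0.17, within 1.5-fold in either direction.

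In nucleotide supply 1 of 5 genes fell, which is near the 17.5% of all genes that fell. RRM1, the large subunit of ribonucleotide reductase, which makes deoxyribonucleotides, had 9.75, 9.78 and 9.78 in ERβ2 siRNA cells, against 10.24, 10.09 and 10.07 in control siRNA cells. The groups did not overlap, and the change was −0.36 (SE 0.06, 95% confidence interval −0.51 to −0.22, adjusted p = 0.00321). RRM2, the small subunit of the same enzyme and the one whose level follows S phase, had 9.83, 9.82 and 9.83 in ERβ2 siRNA cells, against 9.86, 9.86 and 9.84 in control siRNA cells. The arrays did not overlap, but the group means lay only 0.03 apart (change −0.03, 95% confidence interval −0.14 to 0.09, adjusted p = 0.732). TYMS, thymidylate synthase, had a change of 0.13 (adjusted p = 0.121), TK1, the thymidine kinase of dividing cells, one of −0.14 (adjusted p = 0.143), and DUT, the dUTPase, one of −0.05 (adjusted p = 0.615). The medians of these 5 changes and of the polymerase genes were −0.05 and −0.03, against −0.34 for origin firing and −0.12 for licensing.

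Fork protection and control held 2 falls among 4 genes, against 17.5% of all genes. DTL, which targets CDT1 for destruction at forks, had 9.59, 9.52 and 9.50 in ERβ2 siRNA cells, against 10.09, 9.95 and 9.97 in control siRNA cells. The ERβ2 siRNA arrays were all lower, by 0.47 on average (SE 0.06, adjusted p = 0.000811). CLSPN, the fork adaptor of the ATR to CHK1 checkpoint, had 7.29, 7.39 and 7.47 in ERβ2 siRNA cells and 7.78, 7.80 and 7.87 in control siRNA cells. It changed by −0.43 (SE 0.06, adjusted p = 0.00151), and its second cluster on the array by −0.30 (adjusted p = 0.0151). TIMELESS, of the fork protection pair TIMELESS and TIPIN, had 7.64, 7.54 and 7.57 in ERβ2 siRNA cells, against 7.68, 7.42 and 7.55 in control siRNA cells. These arrays overlapped fully (change 0.03, adjusted p = 0.776), and TIPIN had a change of −0.05 (adjusted p = 0.675).

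Among the 5 genes for chromatin behind the fork, 3 fell, against 17.5% of all genes. ASF1B, the histone chaperone of dividing cells, had 9.80, 9.82 and 9.75 in ERβ2 siRNA cells, against 10.61, 10.47 and 10.53 in control siRNA cells. The groups were far apart, and the change was −0.75 (SE 0.06, 95% confidence interval −0.88 to −0.61, adjusted p = 6.16e-05). CHAF1A, the large subunit of chromatin assembly factor 1, changed by −0.41 (SE 0.08, adjusted p = 0.00768), while its partner CHAF1B changed by −0.16 and missed the threshold (adjusted p = 0.122). UHRF1, which brings the maintenance DNA methyltransferase to new strands, changed by −0.18 (adjusted p = 0.0706). Its second cluster, at a mean level under 5, changed by −0.20 and did not pass (adjusted p = 0.227). SLBP, which binds the stem-loop of histone mRNA, had 9.29, 9.32 and 9.25 in ERβ2 siRNA cells, against 9.44, 9.43 and 9.32 in control siRNA cells, and its change of −0.11 did not pass (adjusted p = 0.199). The highest ERβ2 siRNA array equalled the lowest control siRNA array.

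**Figure D2:**
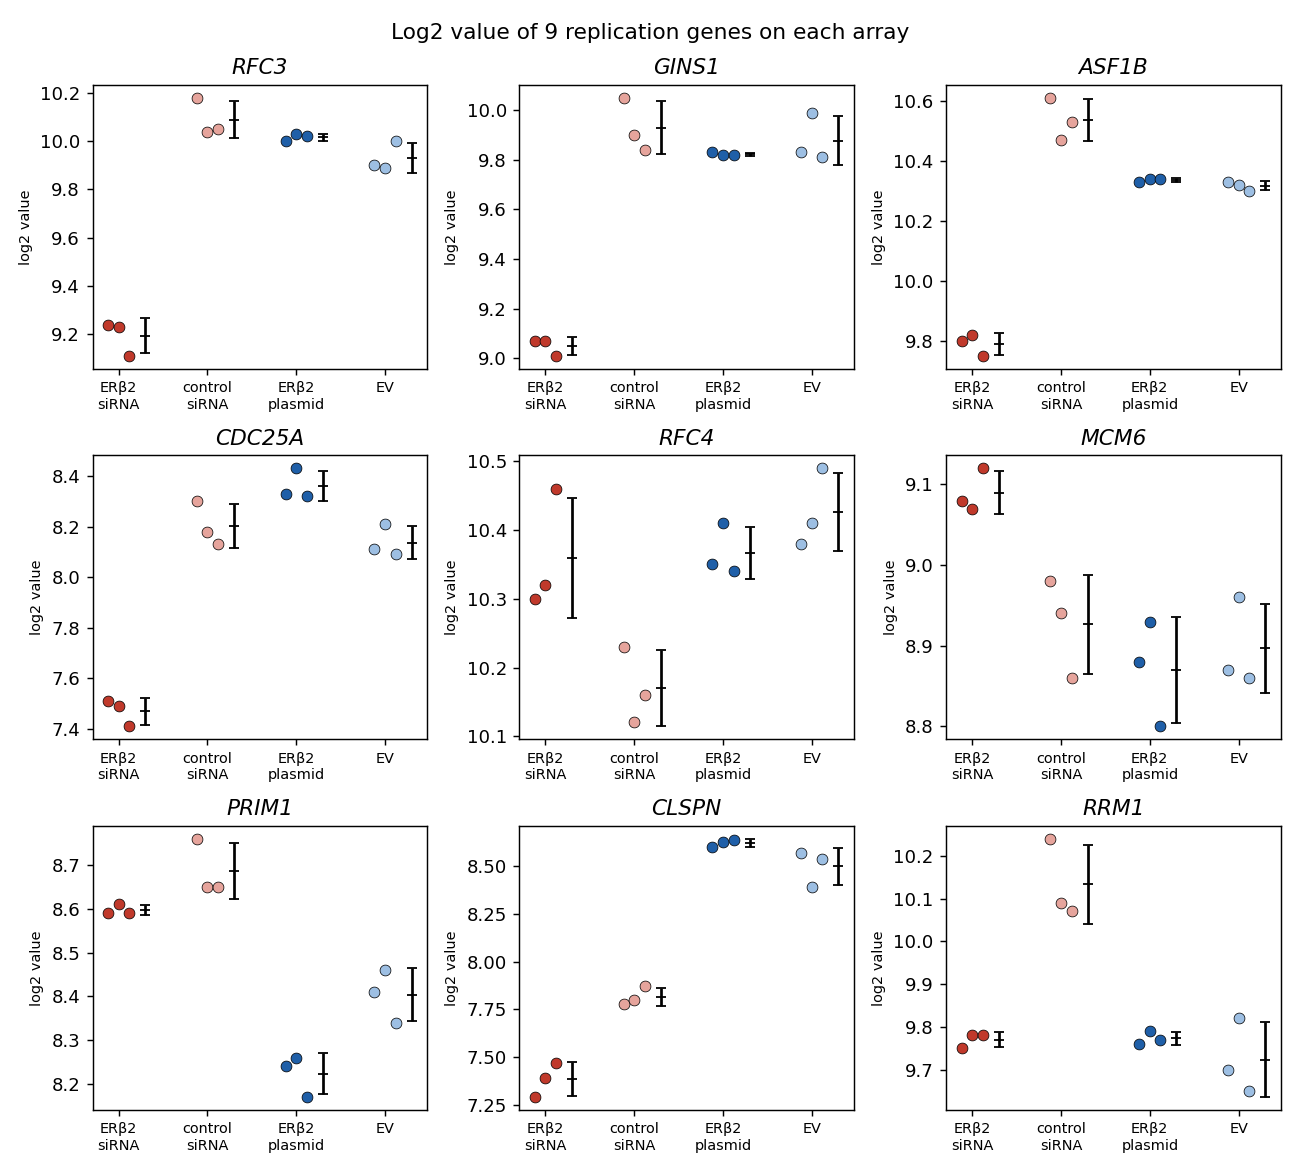
Log2 value of 9 replication genes on each array, by group (points: arrays; bars beside them: mean ± SD, n = 3; each panel has its own axis). For RFC3, GINS1, ASF1B and CDC25A the ERβ2 siRNA arrays lie below the other 9, while for MCM6 they lie above them, at 9.07 to 9.12.

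The promoter motif was present in genes that fell and in genes that did not pass. Of the 22 genes that fell and had a promoter in the table, 11 held the E2F-type motif, as did 9 of the 21 that did not pass (42.9%) and 1 of the 2 that rose. The CCAAT box was held by 15 of the 22 that fell (68.2%) and by 8 of the 21 that did not pass (38.1%). These are counts of letters in a window and were not tested.

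ERβ2 plasmid was compared with EV at 24 h to ask which replication genes change when ERβ2 is added. None of the 52 genes rose or fell (limma, adjusted p of at most 0.1), where 0.0111% of all genes rose (2 genes) and none fell. The methods' t-test called none either. At an unadjusted p under 0.05, 5 of the 52 were higher and 1 was lower, against 2.96% and 4.06% of all genes. The median change was 0.01, against −0.003 for all genes, and the changes ran from −0.18 to 0.24. On 7 genes all plasmid arrays lay above all EV arrays and on 2 genes below, against 5.35% and 6.67% of all genes. The median SE was 0.06, and the 95% confidence intervals of the 52 genes lay between −0.31 and 0.53.

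The 4 genes with the smallest p were CDC25A, TK1, PRIM1 and GINS3. CDC25A had 8.33, 8.43 and 8.32 in plasmid cells, against 8.11, 8.21 and 8.09 in EV cells. The groups did not overlap, but the change of 0.22 (SE 0.06, 95% confidence interval 0.08 to 0.36) did not pass (adjusted p = 0.534). TK1 had 10.11, 10.05 and 10.14 in plasmid cells, against 9.95, 9.94 and 9.91 in EV cells (change 0.17, adjusted p = 0.577). PRIM1 had 8.24, 8.26 and 8.17 in plasmid cells, against 8.41, 8.46 and 8.34 in EV cells (change −0.18, adjusted p = 0.585). GINS3 had 8.57, 8.55 and 8.61 in plasmid cells, against 8.47, 8.39 and 8.39 in EV cells (change 0.16, adjusted p = 0.585). On these 3 genes too the arrays of both groups stood apart without passing the test. CDC6 had the largest change, 0.24, and the widest interval (−0.04 to 0.53), with plasmid replicate 2 at 10.40 and the other plasmid arrays at 9.85 and 10.02.

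**Figure D3:**
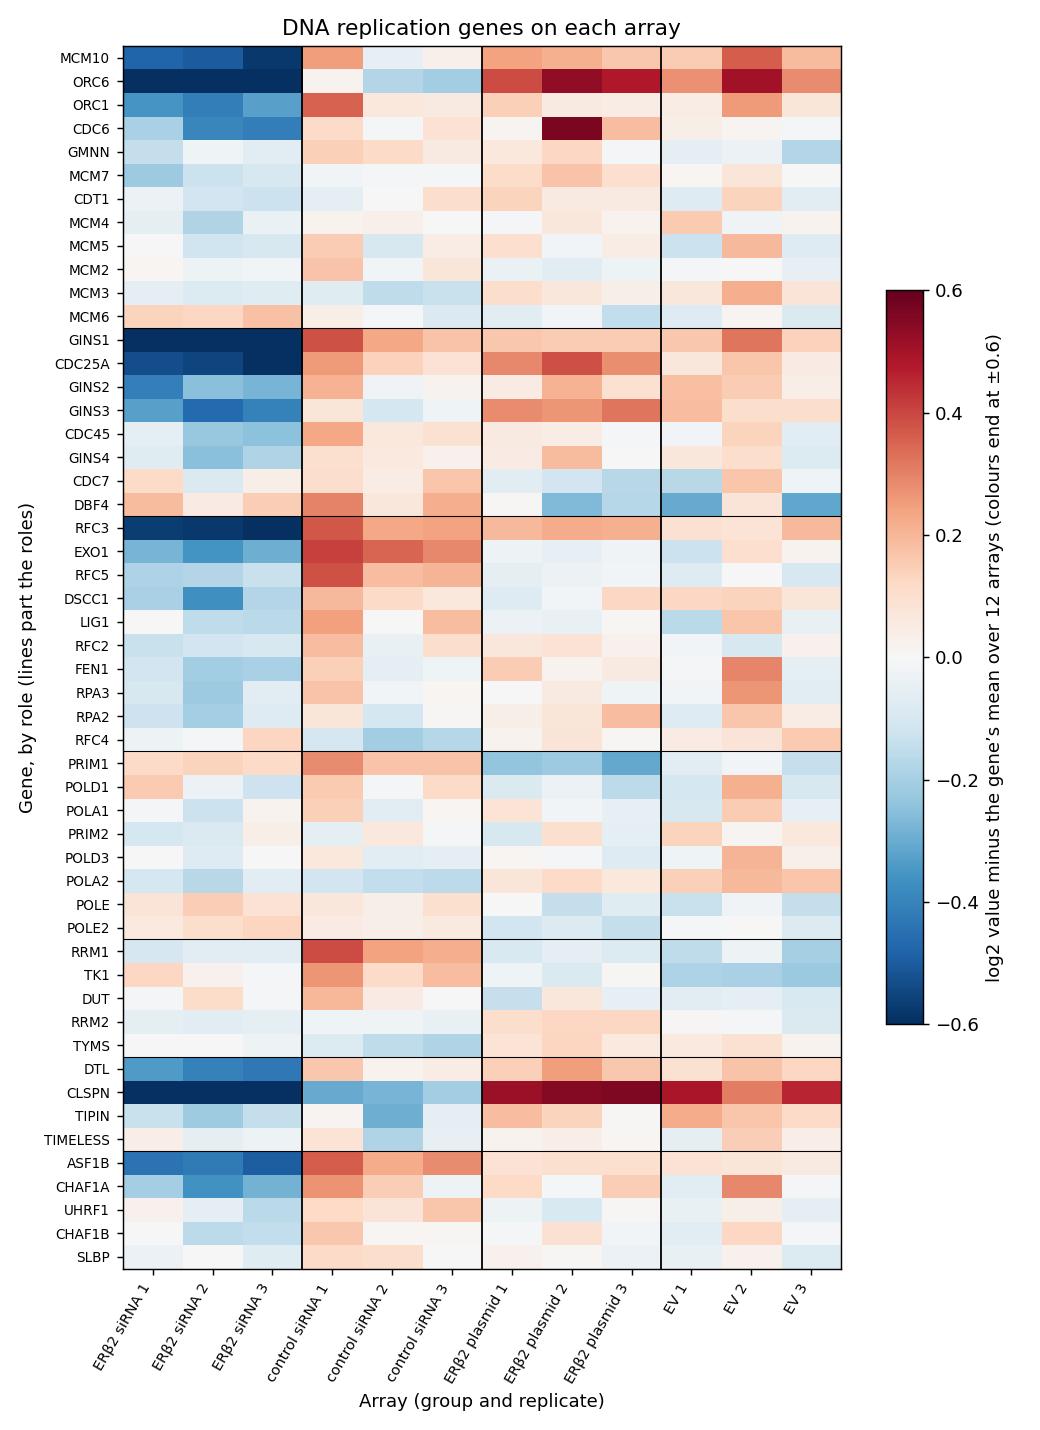
Each of the 52 genes (rows, by role) on each of the 12 arrays (columns, by group), as the log2 value minus the gene's mean over the 12 arrays, with the colours ending at ±0.6. The ERβ2 siRNA columns are low for most licensing, firing and clamp loader genes, while the polymerase rows stay pale; control siRNA replicate 1 and EV replicate 2 are the highest columns of their groups.

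The difference between both effects was tested over all 12 arrays (knockdown effect minus overexpression effect). At an adjusted p of at most 0.1 (limma), it was lower than 0 for 24 of the 52 genes and higher for 1, RFC4. Of all genes, 11.3% and 15% passed in these directions. Whether they passed or not, 38 of the 52 differences were below 0 and 14 above, against 9660 and 8282 of all 17958 genes. The median difference was −0.19, against −0.02 for all genes. For 7 genes it was at least 1.5-fold below 0 and for none as far above, against 1.46% and 4.04% of all genes. RFC3 had −0.90 on knockdown and 0.09 on overexpression, a difference of −0.98 (SE 0.08, adjusted p = 5.84e-06). CDC25A had −0.73 and 0.22, a difference of −0.96 (SE 0.09, adjusted p = 9.46e-06). GINS1 had −0.88 and −0.05, a difference of −0.83 (SE 0.09, adjusted p = 4.9e-05), and ASF1B −0.75 and 0.02, a difference of −0.77 (SE 0.07, adjusted p = 1.04e-05). For each of these 4 genes the ERβ2 siRNA group was thus lowered relative to its control by more than the plasmid group was moved from its own. MCM7 and TK1, which passed in neither comparison alone, had differences of −0.24 (adjusted p = 0.0313) and −0.31 (adjusted p = 0.0153). None of the 8 polymerase and primase genes passed.

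The EV and control siRNA groups were also set against each other, since they are the baselines of both arms. Of the 52 genes, 7 rose and 9 fell in EV relative to control siRNA cells, against 19.2% and 22.4% of all genes. The median change was −0.035, against −0.057 for all genes. On 9 genes the EV arrays all lay above the control siRNA arrays and on 12 below, against 21% and 26.2% of all genes. Time after transfection, reagent, kind of nucleic acid and cell density differ together here and cannot be told apart, and the control siRNA arrays are those of the knockdown comparison.

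CLSPN had the largest change between these control groups and the only one of at least 1.5-fold, against 5.57% of all genes higher by that size and 1.3% lower. It had 8.57, 8.39 and 8.54 in EV cells, against 7.78, 7.80 and 7.87 in control siRNA cells (change 0.68, SE 0.07, adjusted p = 0.000152). ORC6 was also higher, with 8.06, 8.29 and 8.07 in EV cells and 7.81, 7.61 and 7.58 in control siRNA cells (change 0.47, adjusted p = 0.0046). For both genes the 4 groups formed steps. The means of CLSPN were 7.38 in ERβ2 siRNA cells and 7.82 in control siRNA cells, and 8.62 in plasmid cells and 8.50 in EV cells. Those of ORC6 were 7.09 in ERβ2 siRNA cells and 7.67 in control siRNA cells, and 8.26 in plasmid cells and 8.14 in EV cells. The plasmid arrays all lay above the EV arrays for CLSPN and overlapped them for ORC6, and neither plasmid effect passed the test.

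RRM1, TK1, DBF4 and EXO1 were lower in EV cells. RRM1 had 9.70, 9.82 and 9.65 in EV cells, against 10.24, 10.09 and 10.07 in control siRNA cells (change −0.41, adjusted p = 0.00364). The means of RRM1 were 9.77 in ERβ2 siRNA cells, 9.77 in plasmid cells and 9.72 in EV cells, so control siRNA cells stood alone above these 3 groups. EXO1 had 8.99, 9.22 and 9.14 in EV cells, against 9.53, 9.47 and 9.41 in control siRNA cells (change −0.35, adjusted p = 0.00803), and its ERβ2 siRNA arrays lay lower still. TK1 had 9.95, 9.94 and 9.91 in EV cells, against 10.40, 10.25 and 10.32 in control siRNA cells (change −0.39, adjusted p = 0.00195). On RRM1, EXO1 and TK1 no EV array reached the control siRNA arrays. DBF4 had 4.37, 4.75 and 4.36 in EV cells, against 4.97, 4.74 and 4.89 in control siRNA cells, with overlap at EV replicate 2 (change −0.37, adjusted p = 0.0359). Its call was lost without EV replicate 1 (adjusted p = 0.109), EV replicate 3 (adjusted p = 0.103) or control siRNA replicate 1 (adjusted p = 0.109). Without EV replicate 2, which stood high, 7 genes rose and 13 fell.

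Of the polymerase and primase genes, none of which passed on knockdown, POLA2 rose by 0.31 in EV cells (adjusted p = 0.00383), while PRIM1 changed by −0.28 (adjusted p = 0.0111) and POLE by −0.17 (adjusted p = 0.0713). The call of POLE held only without EV replicate 2 when each array was left out in turn, and those of GMNN, TYMS and TIPIN were also lost without at least 1 array. POLA2, PRIM1 and POLE encode an accessory subunit of polymerase α, the primase and the catalytic subunit of polymerase ε. The others that rose in EV cells were TIPIN (0.28), RFC4 (0.26), MCM3 (0.24) and TYMS (0.19), and the others that fell were RFC5 (−0.31), ASF1B (−0.22) and GMNN (−0.19). The cluster used for UHRF1 did not pass between the control groups, while its dim second cluster fell (−0.36, adjusted p = 0.0212).

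**Figure D4:**
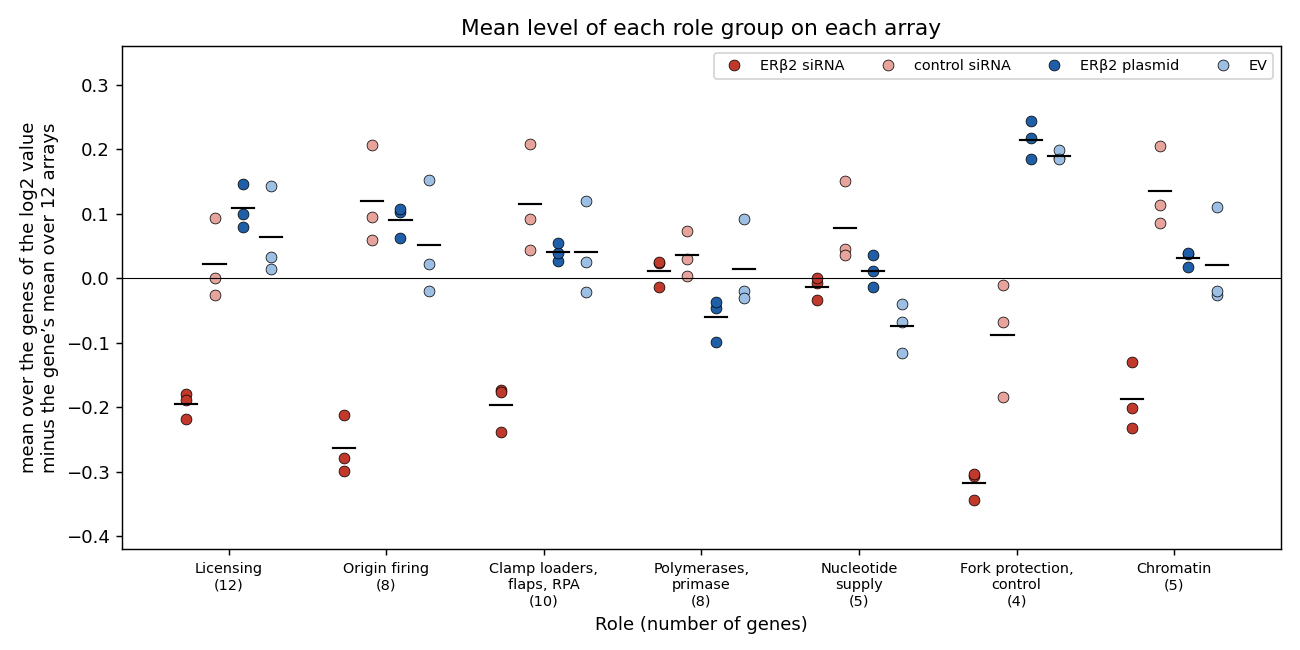
Mean over the genes of each role of the log2 value minus the gene's mean over 12 arrays, 1 point per array (lines: group means, n = 3). For origin firing the ERβ2 siRNA arrays lie at −0.30 to −0.21 and the control siRNA arrays at 0.06 to 0.21, while for polymerases and primase the ERβ2 siRNA arrays (−0.01 to 0.02) overlap the control siRNA arrays (0.00 to 0.07).

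Across the 4 groups the ERβ2 siRNA group had the lowest mean for 34 of the 52 genes, control siRNA for 5, plasmid for 6 and EV for 6, with 1 tie. The highest mean was that of ERβ2 siRNA for 3 genes, control siRNA for 24, plasmid for 13 and EV for 11, again with 1 tie. The order of the groups was not counted over all genes, so these counts do not set the replication genes apart. In the plot of role means by array, fork protection and control ran from −0.34 to −0.30 on ERβ2 siRNA arrays, from −0.18 to −0.01 on control siRNA arrays, from 0.18 to 0.24 on plasmid arrays and from 0.18 to 0.20 on EV arrays. Over the 12 arrays, which share their group differences, the 1326 pairs of genes had a median correlation of 0.38, and 73.6% were positive. Pairs of other genes were not correlated for comparison. MCM10 (median correlation with the others 0.62), FEN1 (0.62) and CDC45 (0.62) were nearest to the rest of the set. MCM6 (−0.47), POLE2 (−0.40), POLE (−0.34) and RFC4 (−0.19) ran against it.

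A list of 61 other replication genes, of which 56 were measured, was read from the same knockdown comparison: 21 fell and 11 rose, none by 1.5-fold, against 17.5% and 18.3% of all genes. Their median was −0.05, against −0.03 for all genes. The largest falls were ATAD5 (−0.58, adjusted p = 0.000397), which unloads PCNA, and TICRR (−0.54, adjusted p = 0.000258), which brings TOPBP1 to the helicase at firing. DBF4B, a second activator of CDC7, followed (−0.51, adjusted p = 0.00259), and so did MMS22L (−0.44, adjusted p = 0.00223), which acts in the repair of stalled forks. ATAD5 had 7.31, 7.28 and 7.35 in ERβ2 siRNA cells, against 8.01, 7.81 and 7.86 in control siRNA cells, and TICRR had 8.64, 8.61 and 8.62 in ERβ2 siRNA cells, against 9.24, 9.11 and 9.14 in control siRNA cells. Neither gene overlapped between the groups. Among those that rose were RRM2B (0.33), the p53-induced subunit of ribonucleotide reductase, and ASF1A (0.30), the paralog of ASF1B, which fell. The small polymerase subunits POLE4 (0.26, adjusted p = 0.0275) and POLD4 (0.20, adjusted p = 0.0208) rose as well. On overexpression none of the 56 passed the test (limma, and also none by the methods' t-test; 2 higher and 1 lower at an unadjusted p under 0.05). Between the control groups 10 rose and 12 fell in EV cells, against 19.2% and 22.4% of all genes.

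Listed as background, 10 regulators of S phase entry all passed the test on knockdown. Of these, 8 fell and 2 rose, against 17.5% and 18.3% of all genes. The list was chosen with earlier results of these data known, so its count is no independent result. The paper itself reports changes of E2F2, CCNE2, CCNA2 and CDKN1A on knockdown. E2F2, an activating E2F factor, had 5.89, 5.69 and 5.89 in ERβ2 siRNA cells, against 7.06, 7.07 and 7.14 in control siRNA cells (change −1.27, SE 0.07, adjusted p = 1.25e-05). No array overlapped, and the fall was larger than that of any of the 52 replication genes. E2F8 changed by −0.52 and E2F7 by −0.39 (both repressing members), CCNA2 by −0.44, CDK2 by −0.39, CCNE2 by −0.34, and E2F1 and CCNE1 by −0.20 each. The 2 that rose were CDKN1A, the p21 inhibitor of CDK2, and the activating factor E2F3 (0.27, adjusted p = 0.0165). CDKN1A had 9.24, 9.19 and 9.14 in ERβ2 siRNA cells, against 8.63, 8.63 and 8.47 in control siRNA cells (change 0.61, adjusted p = 0.000261), and it also rose in EV relative to control siRNA cells (0.42, adjusted p = 0.00221). Between the control groups 2 of the 10 rose in EV cells and 2 fell, against 19.2% and 22.4% of all genes. Besides CDKN1A, E2F3 rose (0.33, adjusted p = 0.00547), while CCNA2 (−0.50, adjusted p = 0.00241) and E2F7 (−0.18, adjusted p = 0.0641) fell. The means of CCNA2 were 10.77 in control siRNA cells, 10.33 in ERβ2 siRNA cells, 10.27 in EV cells and 10.33 in plasmid cells. The part of these regulators in the levels of the replication genes was not tested.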

How the data were processed

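RNA of 12 cultures, 3 per group, was read on Human Gene 1.1 ST arrays. The deposited values are log2 values, to which the authors had applied RMA background correction, normalization between arrays and summary per transcript cluster (Affymetrix Expression Console; version not stated). The log base is not stated either and was taken as that of RMA. This normalization removes a shift shared by most genes, and the number of arrays limits the precision.

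The annotation gave 1 symbol for 19181 of 33297 clusters, several for 2055 and did not list 12061; 19143 IDs matched RefSeq. The cluster with the highest mean was used for the 895 genes with several, which left 17958. Groups came from sample titles. Each comparison was fitted with limma 3.58.1 in R 4.3.3 (lmFit, eBayes) on its own arrays, and the difference of effects on all 12, with Benjamini-Hochberg adjustment over all genes and no filter on low values. The threshold was an adjusted p of 0.1, and counts at 1.5-fold also needed an unadjusted p under 0.05. The fit was tested on simulated data.

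The members and lists were chosen with earlier results of these data known. Array values are given for the 10 largest falls and up to 5 rises among members that passed, the largest and smallest change of each role, the 4 smallest p on overexpression, the 6 largest changes between control groups, the 4 largest differences, and the 4 largest changes of other replication genes, which with all regulators are the named genes. Values of CDC6, MCM7, ORC2 to ORC5, RFC1, RPA1, POLE4, POLD4, RRM2B and ASF1A were chosen after they were seen. So were the promoter of POLE2 and further members given by their change alone. Alternatives were other choices of cluster, a filter on dim genes, quantile, loess and median scaling, a trend with robust prior, a stricter threshold, the methods' t-test, 1 fit for all groups, a replicate block and leaving out each array.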

Additional observations from a re-analysis of the deposited data

Results flagged for a closer look

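The effects of ERβ2 siRNA and of the ERβ2 plasmid differed, by the test over all 12 arrays, for the replication genes named here. The differences (knockdown effect minus overexpression effect, log2) were −0.98 for RFC3, −0.96 for CDC25A, −0.83 for GINS1, −0.77 for ASF1B, −0.70 for ORC6 and −0.63 for EXO1. They were −0.57 for MCM10, −0.56 for CLSPN, −0.54 for GINS3, −0.52 for DTL, −0.48 for ORC1 and −0.41 for RRM1. TK1 (−0.31), RRM2 (−0.17) and RFC4 (0.25) differed by less. RRM2 passed in neither arm alone: its change was −0.03 on knockdown and 0.15 on overexpression. ESR2 itself differed by −0.49 (adjusted p = 0.0328). The arms differ in time, reagent and cell density as well, which cannot be told apart from the treatment in this contrast.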

How the results depend on the processing

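The count of replication genes that fell on ERβ2 siRNA stayed within 1.5 times under all 18 alternatives, between 19 and 32. The 10 largest falls passed in each. Leaving out each array in turn kept 19 of the 25 falls every time; GMNN, RFC2, FEN1, LIG1, RPA3 and UHRF1 were lost at least once. The count that rose was 0 at an adjusted p under 0.05, 4 by the methods' t-test with q-values, and 0 to 3 without each array in turn. With each array centred on its median, 20 fell and 3 rose, and the share of higher genes among all that passed was 67.2%, against 51.0%. Changes near 0 turned sign: DBF4 to 0.0045 (cyclic loess), POLD3 to 0.05 and RRM2 to 0.0267 (median centring). Without each array in turn POLD3 ran from −0.0267 to 0.0383 and TIMELESS from −0.0317 to 0.0983. ESR2 on knockdown was 0.04 after quantile normalization again, 0.0487 after cyclic loess, 0.0367 after median centring, and −0.0917 to 0.0683 without each array in turn. Between the control groups ESR2 ran from −0.0333 to 0.0583 without each array in turn and from 0.0067 to 0.0861 under the other alternatives, and 14 members fell after quantile normalization again and 14 by the methods' t-test with q-values. For the difference of effects, 2 passed as higher without dim genes, 2 with a trend and robust prior, and 0 to 2 without each array in turn. Its median ran from −0.25 (without EV replicate 2) to −0.15. On overexpression no alternative called any of the 52.

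Whether the replicate numbers pair the arrays was not settled. Deviations of same-numbered arrays correlated at 0.22, 0.14 and 0.01 for the knockdown. These correlations were −0.14, −0.09 and 0.10 for the overexpression and −0.24, −0.16 and 0.12 for the control groups. Averaged over the replication genes, replicate 1 lay highest and replicate 2 lowest within each siRNA group. These mean deviations were 0.07 and −0.05 in control siRNA cells and 0.02 and −0.02 in ERβ2 siRNA cells. Replicate 2 lay highest in EV cells (0.07) and in plasmid cells (0.02). With the replicate block 26 fell and 2 rose on knockdown, 0 changed on overexpression, and 8 fell and 7 rose between control groups. The difference of effects then passed as lower for 23 and as higher for 1. The causes were not tested.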
